A study of Mus musculus with 3 samples.

Results

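The 45 genes described here encode the acid hydrolases, membrane proteins and proton pump of the lysosome. They were chosen by name, on the strength of their summed levels across macrophage subsets, dendritic cells and lymphocytes, as 45 of the 32285 genes counted, and fall into 8 roles: the V1 sector of the vacuolar ATPase (8 genes), its V0 sector (6), its accessory subunits (2), proteases (8), glycosidases and an acetyltransferase (7), lipid hydrolases and lipid transport (7), membrane proteins and a channel (6), and progranulin (*Grn*). Because such levels stood behind the list, they are given as a description, without a test. The difference between genotypes within a class was tested across all genes. The summed levels were per mouse, with genotype and severity known, and the list was chosen with earlier results of these data known. The tests of genotype and severity are therefore not independent of that choice.

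The lysosome is the acidic compartment in which macrophages digest what they engulf. The vacuolar ATPase keeps it acidic: its V1 sector in the cytosol hydrolyses ATP, and its V0 sector in the membrane carries the protons across. Cathepsins and other hydrolases work inside, under a coat of heavily glycosylated membrane proteins such as LAMP1 and LAMP2, and the transcription factors TFEB and TFE3 switch on many of these genes together.

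The counts come from CITE-seq, in which the transcripts of a cell are counted together with DNA-tagged antibodies bound to its surface, on CD45+ leukocytes of mouse aortas. Cells of 5 *Jak2WT* mice and 5 *Jak2V617F Myel* mice were compared; the latter carry the activating V617F change of the kinase JAK2 in cells that express Cre under the Lysozyme M promoter, which is used mainly by myeloid cells, and all were on a C57BL/6 background. The aorta was aneurysmal in 2 of the mutant mice and dilated in the other 3. The paper also describes a myeloproliferative neoplasm in this strain. The mutation can therefore not be told apart here from the aortic or the blood disease, and genotype stands for all of them. The age of the mice in this experiment is not given in the sources used here. The paper used male and female mice, and the sex of each mouse here is not given. An antibody to CD45.2, injected shortly before death, marked circulating leukocytes, and the sort left these out. Each mouse carried its own hashtag antibody, 1 to 5 for *Jak2WT*, 6, 8 and 10 for dilation and 7 and 9 for aneurysm, and is called here by that number.

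All mice were pooled before the sort and sequenced in a single run, so the transcript, antibody and hashtag libraries cover the same cells. Before pooling, cells of the 2 genotypes were labeled with CD45 antibodies of different dyes. The sort was adjusted so that each genotype gave about an equal part of the cells. This labeling and sorting cannot be told apart from genotype. Of 8471 barcodes, 4871 single cells remained, and more of these came from mutant mice. There were 112 to 553 cells per *Jak2WT* mouse and 345 to 811 per mutant mouse. UMIs (unique transcript molecules) ran from 1038443 to 9643994 per mouse. Values are UMIs per 1000000 of the summed UMIs of a mouse in a class (CPM), with at least 10 cells per sum. The class of resident macrophages held 582 cells, 24 to 99 per mouse, from the Res-MGL1hi, Res-*Txnip*hi and Res-S100hi subsets, and all 7 macrophage markers were present in it (19347 to 23610 CPM in sum). Genes of macrophages also gave UMIs in lymphocytes: the complement genes *C1qa*, *C1qb* and *C1qc*, which macrophages make, stood in B cells at 1.38% to 1.73% of their level in resident macrophages, and in T cells at 1.40% to 1.64%.

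Transcripts of the 45 genes took the largest share of UMIs in resident macrophages, 1.96% ± 0.0960 (SD, n = 10 mice), with a range of 1.88% to 2.20%. Ccr2+ inflammatory macrophages followed with 1.81% ± 0.226 (n = 5), and the macrophages high in immediate-early genes (IEG+) with 1.57% ± 0.144 (n = 9). Resident and inflammatory macrophages overlapped in their ranges. Type 2 conventional dendritic cells (cDC2) gave 1.15% ± 0.152 (n = 9), and type 1 (cDC1) gave 0.780% ± 0.0515 (n = 4). B cells stood at 0.406% ± 0.0310 (n = 9), T cells at 0.306% ± 0.0330 (n = 10) and group 2 innate lymphoid cells (ILC2) at 0.299% ± 0.0205 (n = 9). The neighbours T cells and ILC2 did not differ beyond their spread. After every cell was thinned to 2000 UMIs, the share was 1.97% in resident macrophages, 1.12% in cDC2 and 0.414% in B cells.

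**Figure D1:**
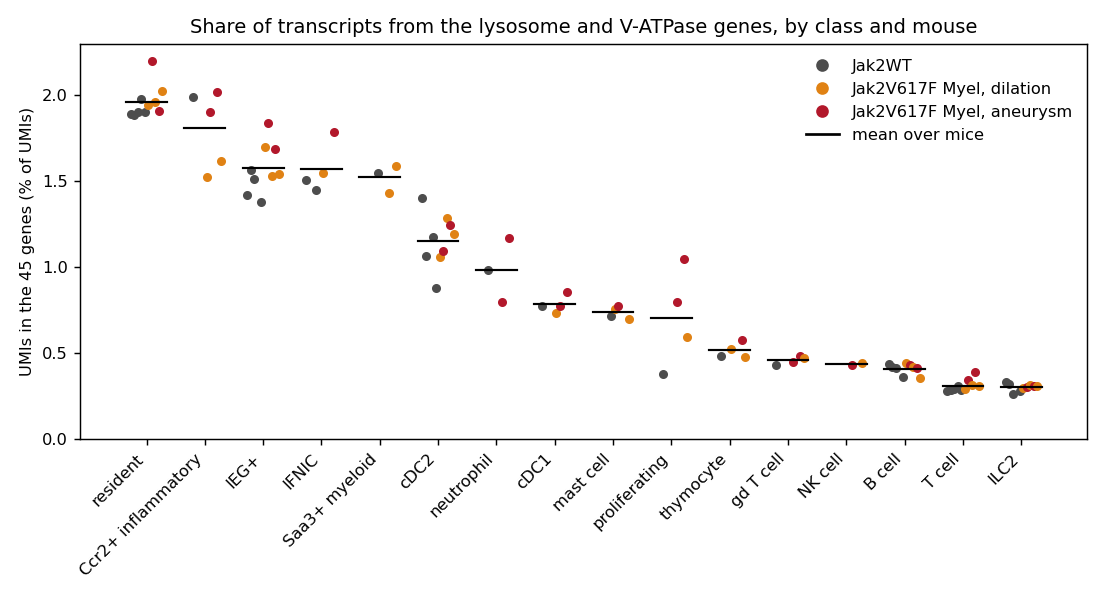
Percent of UMIs in the 45 genes (y axis) for each cell class (x axis); each point is a mouse with at least 10 cells in the class, colored by group, and lines are means over mice. Resident macrophages sit between 1.88% and 2.20%, and T cells between 0.279% and 0.384%.

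The roles did not fall to the same degree from macrophages to lymphocytes. Proteases took 0.673% ± 0.0293 of UMIs in resident macrophages (n = 10) and 0.0784% ± 0.0123 in B cells (n = 9). The V1 sector took 0.125% ± 0.0134 in resident macrophages and 0.0772% ± 0.0101 in B cells. Over all members, the level in B cells was a median of 26.2% of that in resident macrophages, with a range of 2.40% (*Cd68*) to 112% (*Gla*), and 39 of 45 were lower in every one of 9 mice. In T cells the median was 16.0%, and 42 of 45 were lower in every one of 10 mice. Such counts between classes, here and below, were not made over all genes, so they are not read as particular to the members. The level of 5 members in B cells and 8 in T cells was at or under 3 times that of the C1q genes relative to resident macrophages. In cDC2 the C1q genes stood higher, at 7.48% to 12.1% of their resident level, and 14 of 45 members were at or under 3 times the highest of them. Whether such UMIs came from free RNA, from doublets of the same mouse or from the cells themselves was not tested.

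**Figure D2:**
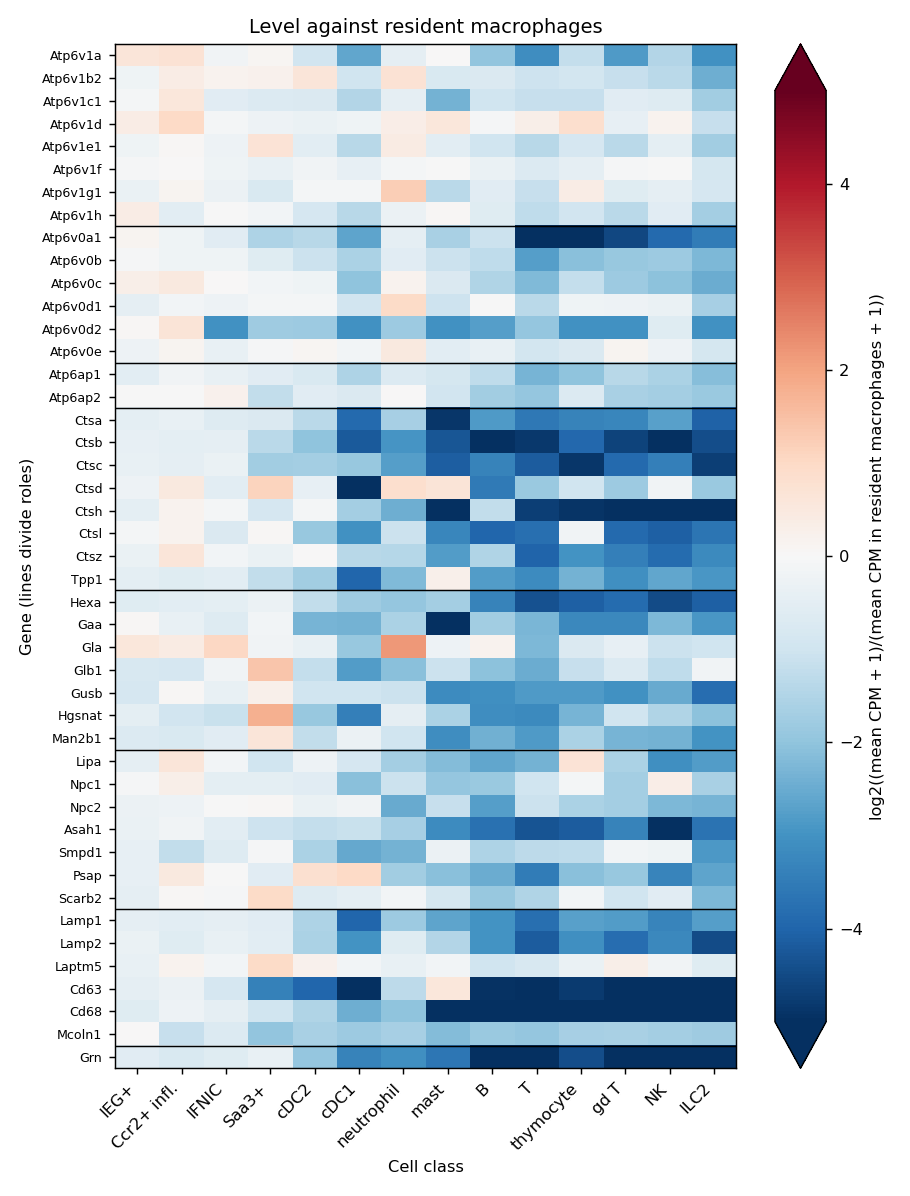
Mean CPM of each gene (rows, divided by role) in each class (columns) against resident macrophages, as the log2 of the ratio with 1 CPM added to both; colors end at the limits of the scale. Apart from *Atp6v0a1* and *Atp6v0d2*, the V-ATPase rows stay paler across lymphocytes than those of *Ctsb*, *Cd63*, *Cd68* and *Grn*.

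Of the pump, the V0 subunit d exists in 2 forms, the broadly made *Atp6v0d1* and *Atp6v0d2*, which is known from osteoclasts and some macrophages. *Atp6v0d1* was at 100.0 CPM ± 26.7 in resident macrophages (n = 10) and at 98.5 CPM ± 35.9 in B cells (n = 9). *Atp6v0d2* was at 7.14 CPM ± 4.12 in resident macrophages, from 48 UMIs in all, and at 11.7 CPM ± 12.7 in Ccr2+ inflammatory macrophages (n = 5), where the range was 0 to 27.7. Outside macrophages, B cells held 1 UMI of it, T cells 4 and cDC2 14. In cDC1 there were 0 UMIs of 1206504, which allows up to 2.49 CPM, and in thymocytes 0 of 664243, which allows up to 4.52 CPM; these limits, with 3 counts as the floor, cover counting error only. *Atp6v0a1*, a form of the large V0 subunit a, was at 1.83% of its resident level in T cells, from 5 UMIs, a level close to that of the C1q genes.

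Among the proteases, *Ctsb* (cathepsin B) was at 2915 CPM ± 235 in resident macrophages, 715 ± 315 in cDC2, 158 ± 29.7 in cDC1 and 91.1 ± 23.6 in B cells. *Ctsd* (cathepsin D, an aspartyl protease) stood apart between the dendritic cells, where its level in cDC1 relative to cDC2 was the lowest of the 44 members with at least 30 UMIs. It was at 420.0 CPM ± 143 in cDC2 (n = 9), while cDC1 of mice 2, 6, 7 and 9 had 16.5, 6.20, 8.08 and 11.1 CPM, from 12 UMIs in all. The lowest cDC2 value, 234 CPM, lay above every cDC1 value. Against resident macrophages *Ctsd* was at 1.6% in cDC1, where the C1q genes were at 0.354% to 0.551%. Mast cells (865 CPM ± 258, n = 4) and *Saa3*+ myeloid cells (1198 CPM ± 299, n = 3) had more *Ctsd* than resident macrophages (553 CPM ± 119) on average. *Ctsl* (cathepsin L) was at 285 CPM ± 52.1 in resident macrophages and 252 CPM ± 34.3 in thymocytes (n = 4), against 20.2 CPM ± 11.3 in T cells.

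*Psap*, the precursor of the saposins that help to break down sphingolipids, went the other way. In cDC2 it was at 2067 CPM ± 533, 173% of the resident level and higher in all 9 mice. In cDC1 of mice 2, 6, 7 and 9 it was at 2372, 2212, 2117 and 2604 CPM, 200% of the resident level (higher in 4 of 4 mice). In the resident macrophages of the 10 mice it ran from 1013 to 1461 CPM with a median of 1150 CPM, so that no cDC1 value fell within that range. *Laptm5*, a membrane protein of lysosomes in blood cells, was the only other member higher in cDC2 of every mouse (118% of the resident level).

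Other classes had their own leading members. *Saa3*+ myeloid cells, an additional class of 207 cells, had *Glb1* (beta-galactosidase) at 309% and *Hgsnat*, the acetyltransferase that helps degrade heparan sulfate, at 276% of the resident level. *Hgsnat* was there at 159, 278 and 391 CPM in mice 5, 8 and 10. Thymocytes had *Lipa* (lysosomal acid lipase) at 231 CPM ± 65.9, 178% of the resident level and higher in 4 of 4 mice. Neutrophils had *Gla* (alpha-galactosidase A) at 400% of the resident level, but their 3 mice differed widely, with 621, 229 and 66.3 CPM.

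Within macrophages the differences were smaller. Against resident cells of the same mice, Ccr2+ inflammatory macrophages had 6 members higher and 13 lower in all 5 mice, with a median level of 90.2% and a range of 40.7% (*Smpd1*, acid sphingomyelinase) to 186% (*Atp6v1d*, a subunit of the V1 stalk). The higher members were *Atp6v1a*, *Atp6v1d*, *Atp6v0c*, *Ctsh*, *Ctsz* and *Laptm5*; *Lamp1* at 66.6%, *Grn* at 57.5% and the calcium channel *Mcoln1* at 49.3% were among the lower. *Ctsd* in inflammatory macrophages spread widely, with 708 CPM in *Jak2WT* mouse 2, 173 and 438 CPM in mice 6 and 10 with dilation, and 1138 and 1440 CPM in mice 7 and 9 with aneurysm. Both aneurysm values lay above those of the other 3 mice. How many of all genes did so in this class was not counted, and *Ctsd* was picked after its values were seen. Mice 7 and 9 gave 231 and 188 of the 479 cells of this class and the other 3 gave 10 to 19 cells each, so no test was made. IEG+ macrophages had *Atp6v1a* (148%), *Atp6v1h* (128%) and *Atp6v0c* (122%) above the resident level in all 9 mice, and 17 members below it. The counts of members in these macrophage classes were likewise not made over all genes.

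The resident subsets also differed. In the 7 mice with enough cells of both, Res-MGL1hi cells had *Ctsd* at 773 CPM ± 170 against 463 ± 132 in Res-*Txnip*hi cells, and *Atp6v0c*, the proton-carrying ring of V0, at 1134 CPM ± 267 against 753 ± 109. Both were higher in 7 of 7 mice, as was *Atp6v1b2* (132%). *Man2b1* (alpha-mannosidase, 60.4%), *Laptm5* (69.2%), *Cd63* (69.2%), *Ctsa* (69.6%), *Ctsh* (72.6%) and *Ctsc* (73.7%) were lower in 7 of 7. *Atp6v1a* stood at 155% and was higher in 6 of 7.

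The first comparison asked whether these genes differed between the genotypes in resident macrophages. Of the 44 members tested, 2 rose in *Jak2V617F Myel* mice and none fell (edgeR quasi-likelihood test, Benjamini-Hochberg adjusted p under 0.05). They were *Atp6v1a*, the ATP-hydrolysing subunit A of V1, and *Hgsnat*. Over all genes tested, 1.07% passed, 0.776% upward. *Atp6v0d2*, the remaining member, was too low to test. *Atp6v1a* lies on mouse chromosome 16 (chr16:44085402-44139705, GRCm38, minus strand) and *Hgsnat* on chromosome 8 (chr8:25944453-25976753, minus strand), and the counts are of transcripts of the whole gene.

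*Atp6v1a* was at 115, 124, 115, 131 and 104 CPM in *Jak2WT* mice 1 to 5, and at 185, 228, 169, 200.2 and 191 CPM in mutant mice 6 to 10. All mutant values lay above all *Jak2WT* values. The log2 fold change was 0.76 (SE 0.13), with an adjusted p of 0.0119 by edgeR. *Hgsnat* was at 65.2, 44.5, 48.9, 61.2 and 72.4 CPM in *Jak2WT* mice, and at 97.0, 104, 120.5, 82.5 and 106 CPM in mutant mice. The groups again did not overlap. Its log2 fold change was 0.78 (SE 0.16), with an adjusted p of 0.0263 by edgeR. Leaving out mouse 1, 3, 6 or 7 ended the call for *Hgsnat* (adjusted p of 0.0893, 0.0723, 0.0567 and 0.0538), while *Atp6v1a* kept an adjusted p of at most 0.0496 without any of the 10 mice.

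**Figure D3:**
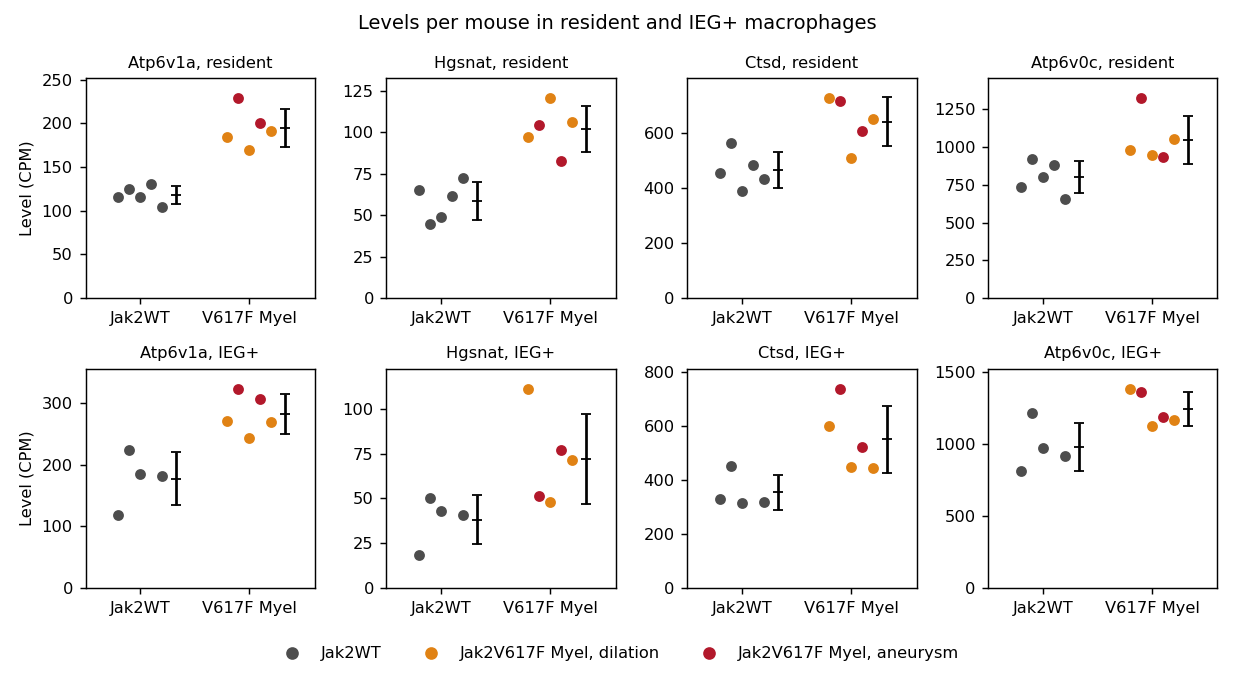
CPM of 4 genes (y axes, from 0) in resident (top) and IEG+ macrophages (bottom); each point is a mouse, colored by group, and bars are mean ± SD. In resident macrophages the groups do not overlap for *Atp6v1a*, *Hgsnat* and *Atp6v0c*, and overlap for *Ctsd*.

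The makeup of the resident class moved with genotype. Res-MGL1hi cells were 5.71% to 39.5% of resident cells in *Jak2WT* mice and 39.7% to 48.1% in mutant mice, and Res-*Txnip*hi cells were 34.2% to 80.0% and 19.8% to 35.4%. Within Res-MGL1hi cells the log2 fold changes were 0.83 for *Atp6v1a* and 0.96 for *Hgsnat* (adjusted p of 0.566 and 0.575), within Res-*Txnip*hi cells 0.30 and 0.66 (0.818 and 0.489), and within Res-S100hi cells 0.49 and 0.47 (0.894 and 0.909), so neither passed within a subset. The Res-MGL1hi values rest on 2 *Jak2WT* mice and 5 mutant mice, and those of Res-S100hi on 3 and 5. The part of this shift in the result was not tested. Markers of B cells, T cells, mast cells and platelets were too low to test in resident macrophages. Those of cDC2 summed to 4.08 to 31.4 CPM in *Jak2WT* and 38.1 to 117 CPM in mutant mice, with 1 of 1 tested marker called. The others of these 5 markers were too low to test. Of the 5, *Cd209a* was at 0 to 18.7 CPM in *Jak2WT* mice 1, 2, 4 and 5 and at 29.3 to 75.2 CPM in mutant mice. *Flt3* was at 0 to 5.57 CPM in the same mice. *Napsa*, also of the 5, was at 15.3 CPM ± 17.8 in the resident macrophages of mutant mice 7 and 10. Its level in *Jak2WT* mice alone is not given here, so this value does not compare the genotypes. The levels of the other markers of the 5, *Itgax* and *Zbtb46*, are not given here. The related *Cd209d*, *Cd209f* and *Cd209g* were among the leading genes of the Res-MGL1hi cluster. The cDC1 markers summed to 96.0 to 203 and 76.2 to 124 CPM, with 1 tested and lower at an unadjusted p under 0.05. Of the 7 macrophage markers none had a log2 fold change above 0, 1 was lower at an unadjusted p under 0.05 and none was called. Whether these markers came from such cells or from the resident cells themselves was not tested, nor was their part in the result.

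Of the other members, 7 were higher and *Ctsh* was lower at an unadjusted p under 0.05 without passing adjustment, beside 12.4% of all genes at that p in either direction. *Ctsd*, at 388 to 565 CPM in *Jak2WT* and 509 to 726 CPM in mutant mice, had a log2 fold change of 0.48 (SE 0.12, adjusted p of 0.0699 by edgeR). *Atp6v0c* (658 to 918 and 934 to 1323 CPM) had 0.41 (SE 0.12, adjusted p of 0.126); GENCODE lists 2 pseudogenes of it and 1 of *Cd63*, and how reads shared with them were counted was not checked. *Atp6v1b2*, *Atp6v1h*, *Gla*, *Ctsl* and *Grn* had adjusted p-values of 0.145, 0.127, 0.146, 0.229 and 0.356. All 8 members of the V1 sector and all 5 tested members of V0 had a log2 fold change above 0, with medians of 0.17 and 0.16. Of 10 further V-ATPase subunits outside the 45, the 2 that could be tested were below 0, *Tcirg1* at -0.39 and *Atp6v0a2* at -0.29, and neither passed. The lipid group had 3 of 7 above 0 and a median of -0.04, and the membrane proteins had 2 of 6 above 0. Over the 44 members the median was 0.11, and over all 6441 genes tested it was -0.01. The groups did not overlap for 3 members, all higher in mutant mice, beside 2.95% of all genes in either direction.

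**Figure D4:**
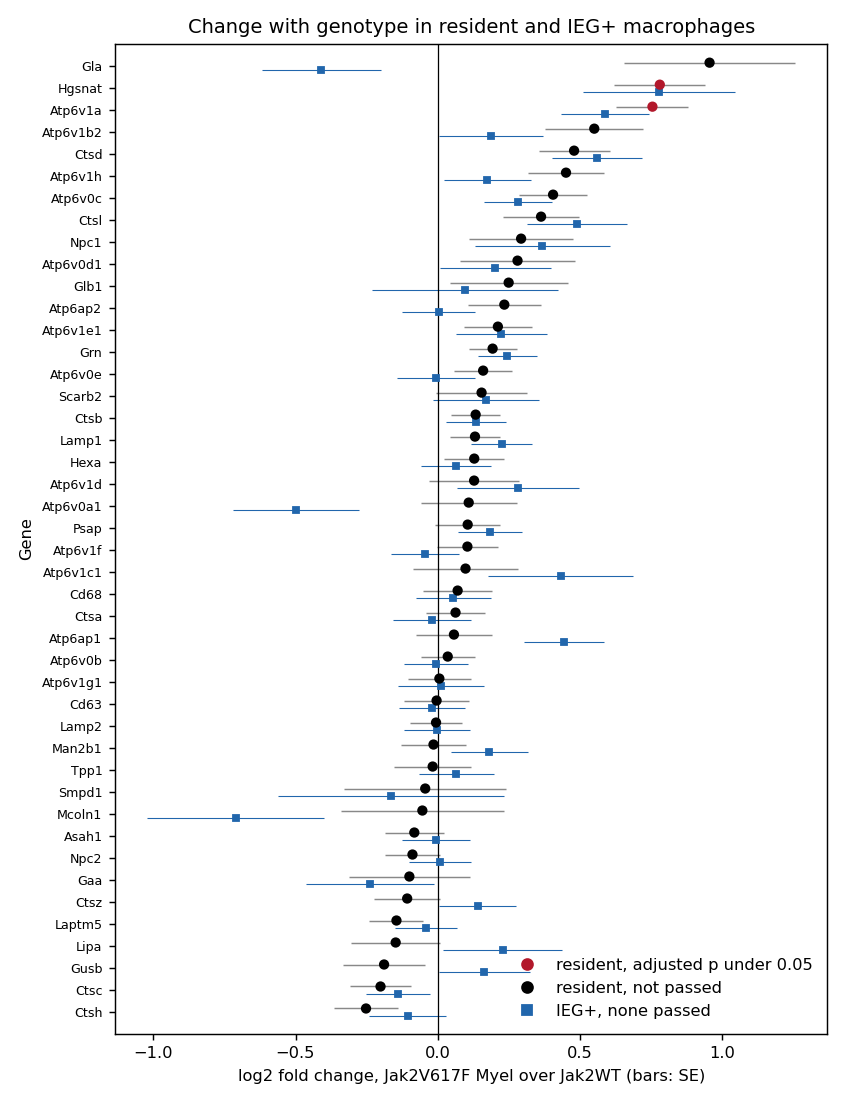
Log2 fold change with genotype (x axis, bars are SE) of the 44 tested members in resident macrophages (circles, in red where the adjusted p is under 0.05) and IEG+ macrophages (squares). Only *Hgsnat* and *Atp6v1a* are red; *Gla* lies at 0.96 in resident and below 0 in IEG+ macrophages.

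From a second list of 89 lysosome genes outside the 45, 66 were tested in resident macrophages. There 6 were higher and 5 lower at an unadjusted p under 0.05 (edgeR), beside 12.4% of all genes in either direction. The median log2 fold change of this list was -0.06. The factors *Tfeb* and *Tfe3* had log2 fold changes of -0.14 (SE 0.26) and 0.06 (SE 0.15).

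TFEB and TFE3 bind the CLEAR element, whose 10 letters are TCACGTGA with a G before it and a C after it. It was searched, on both strands, in the 300 bases around the start of each gene (250 before and 50 after, RefSeq, GRCm38.p6), where 35 members had a window and 10 had none (*Asah1*, *Atp6v0d2*, *Atp6v1b2*, *Atp6v1c1*, *Atp6v1g1*, *Atp6v1h*, *Ctsb*, *Ctsh*, *Hgsnat* and *Npc1*). None of the 35 held the full 10 letters, against 0.370% of 27025 genes. These are all genes with a window, not chosen by their level in these cells, so they are not matched to the members. Without the outer letters, TCACGTGA was in 7 of 35 members (*Atp6v0d1*, *Atp6v0e*, *Atp6v1a*, *Ctsa*, *Ctsd*, *Gla* and *Mcoln1*), or 20%, against 1.12% of all genes. The inner 6, CACGTG, which include those matches, were in 12 of 35 (34.3%), against 8.09% of all genes. In the second list of lysosome genes, 67 had a window. Of these, 2 (2.99%) held the full 10 letters, 5 (7.46%) TCACGTGA and 15 (22.4%) CACGTG. The match is shown in capitals, in 30 bases of the coding strand, for *Atp6v1a*, which rose, and for 3 members given here mouse by mouse or by range; *Gla* holds 2 matches.
Atp6v1a: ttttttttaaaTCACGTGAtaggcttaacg
Ctsd: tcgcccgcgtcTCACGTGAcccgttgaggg
Gla, far: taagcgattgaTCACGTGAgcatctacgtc
Gla, near: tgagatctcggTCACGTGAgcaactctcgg
Atp6v0d1: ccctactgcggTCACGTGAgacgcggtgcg
These lie at chr16:44139373-44139402, chr7:142387908-142387937, chrX:134601215-134601244, chrX:134601182-134601211 and chr8:105566050-105566079, all on the minus strand. The matches are centred 128, 95, 224 and 191 bases upstream of the RefSeq start and, in *Atp6v0d1*, at that start itself. The GENCODE gene spans begin elsewhere. Those of *Atp6v1a* (to 44139705) and *Ctsd* (to 142388038) reach past these sites, which lie inside the gene by that annotation. A match is a description of the letters, and no binding was measured.

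Aneurysm and dilation were compared next, in the resident macrophages of 2 and 3 mutant mice. No member of 44 passed (edgeR), and 1 gene of 7082 did (0.0141%). At an unadjusted p under 0.05 there was 1 member, beside 5.01% of all genes, and DESeq2 also called none. That member was *Gaa* (acid alpha-glucosidase), at 27.9 and 28.2 CPM in mice 7 and 9 and at 37.5, 42.7 and 46.1 CPM in mice 6, 8 and 10. The log2 fold change was -0.62 (SE 0.25, adjusted p of 0.864). The 2 groups did not overlap for 8 members, beside 20% of all genes. *Atp6v1a* had log2 fold changes of 0.88 for aneurysm and 0.66 for dilation against the same *Jak2WT* mice (adjusted p of 0.0377 and 0.121). When all macrophages but those with low RNA were summed, which brings in the inflammatory cells of mice 7 and 9, 13 members passed between aneurysm and dilation, beside 1220 of all 9855 genes tested.

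In IEG+ macrophages (5 mutant and 4 *Jak2WT* mice, mouse 4 having 8 cells), no member of 44 passed (edgeR), beside 0.325% of all genes (0.199% upward), and DESeq2 called none. At an unadjusted p under 0.05, 7 members were higher and 2 lower, beside 11.1% of all genes in either direction, and the groups did not overlap for 5, all higher in mutant mice, beside 4.45% of all genes. The sum of the 7 macrophage markers did not overlap either, at 14428 to 15327 CPM in *Jak2WT* and 15481 to 17621 CPM in mutant mice, with none called, and its part in these values was not tested. *Atp6v1a* was at 119, 223, 186 and 182 CPM in *Jak2WT* mice 1, 2, 3 and 5, and at 270, 323, 243, 306 and 269 CPM in mutant mice 6 to 10. The mutant values were again all higher, with a log2 fold change of 0.59 (SE 0.15, adjusted p of 0.0995 by edgeR). *Hgsnat* had a log2 fold change of 0.78 (SE 0.27, adjusted p of 0.239), and its groups overlapped, at 18.6 to 50.2 and 48.1 to 111 CPM. *Ctsd* had 0.56 and *Grn* 0.25 (adjusted p of 0.133 and 0.374), while *Mcoln1* had -0.71 and *Atp6v0a1* -0.50 (0.382 and 0.403). *Gla*, at 0.96 in resident macrophages, was below 0 here, and the difference was not tested.

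In cDC2 (5 mutant and 4 *Jak2WT* mice, mouse 3 having 7 cells), no member of the 40 tested passed by edgeR, beside 0.0235% of all genes. At an unadjusted p under 0.05 there were 5 members, all higher, beside 7.80% of all genes in either direction. DESeq2 called 1 member, *Ctsl*. Its number over all genes is not given here, and the alternatives to the main fit called 0 to 63 of all genes. *Ctsl* and *Atp6v1f* were the 2 members whose groups did not overlap, beside 3.1% of all genes. *Ctsl* was at 38.3, 13.6, 11.4 and 19.7 CPM in *Jak2WT* mice 1, 2, 4 and 5, and at 165, 122, 50.2, 166 and 99.6 CPM in mutant mice 6 to 10. Every mutant value was higher, the log2 fold change was 2.46 (SE 0.45), and the adjusted p was 0.151 by edgeR and 0.000269 by DESeq2. *Cd63*, a tetraspanin of late endosomes, had 1.37 (SE 0.48, adjusted p of 0.488), which turned to -0.23 when cells were assigned to mice by another method.

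Macrophage markers in cDC2 also tended to be higher in mutant mice. Of 7 such markers 6 were tested, all 6 had a log2 fold change above 0 and 3 an unadjusted p under 0.05, and their sum was 672 to 2040 CPM in *Jak2WT* and 1659 to 4947 CPM in mutant mice, none at 0. *Pf4*, a chemokine gene of resident macrophages and platelets outside that list, was the 1 gene called in cDC2, with a log2 fold change of 2.76 (adjusted p of 0.000924 by edgeR), above that of *Ctsl*. *Lyve1*, a surface receptor of resident macrophages, had 2.01 (adjusted p of 0.507). In cDC2 the C1q genes reached 0.372% to 9.41% of the level of the same mouse's resident macrophages in *Jak2WT* mice and 5.59% to 25.1% in mutant mice. *Ctsl* reached 3.88% to 18.2% and 19.0% to 59.7%, above every C1q gene in 7 of 9 mice, and *Cd63* was above them in 1 of 9. Among mutant mice, mouse 8 had the highest *C1qa* in cDC2 (1322 CPM) and the lowest *Ctsl* (50.2 CPM). Mouse 6 had the lowest *C1qa* (362 CPM), with *Ctsl* at 165 CPM. Among *Jak2WT* mice, mouse 4 had the lowest of both (68.5 and 11.4 CPM). The part of macrophage RNA in the result was not tested.

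Lymphocytes do not use the Lysozyme M promoter as a rule. In B cells no member of 28 tested passed by edgeR or DESeq2, and 0% of all genes passed by edgeR. None had an unadjusted p under 0.05 by edgeR, beside 4.56% of all genes. No member's groups were without overlap there, beside 1.42% of all genes. In T cells no member of 21 passed by either tool, with 0% of all genes. The lowest p there belonged to *Atp6v0d1*, at 28.9, 27.4, 25.1, 17.0 and 26.0 CPM in *Jak2WT* and at 55.9, 54.0, 52.5, 52.4 and 46.0 CPM in mutant mice. Its groups did not overlap, beside 1.64% of all genes, and it had a log2 fold change of 0.86 (SE 0.24, adjusted p of 0.423 by edgeR).

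The antibody panel held 2 products of these genes, CD63, which reaches the surface when lysosome-related granules fuse with it, and CD68, a glycoprotein kept mostly inside the cell. On mast cells CD63 was at 248, 1183, 2187 and 2698 counts per cell in mice 5, 6, 7 and 10. Resident macrophages had 9.72 ± 4.44 (n = 10), Ccr2+ inflammatory macrophages 2.61 ± 0.766 (n = 5) and B cells 0.613 ± 0.137 (n = 9). The transcript *Cd63* was at 1131 CPM ± 213 in mast cells (n = 4), 771 CPM ± 105 in resident macrophages and 24.1 CPM ± 8.92 in B cells (n = 9). CD68 was at 2.44 ± 0.625 counts per cell in resident macrophages, 1.16 ± 0.774 in cDC2 and 0.290 ± 0.158 in B cells. The highest mean of an isotype control, an antibody without a target, was 0.449, 0.180 and 0.0961 counts per cell in these classes. *Cd68* transcripts in mast cells were 0 of 146097 UMIs, which allows up to 20.5 CPM.

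Between genotypes, neither antibody passed on resident macrophages. CD63 was at 5.42 to 9.54 counts per cell in *Jak2WT* and 7.21 to 21.1 in mutant mice (log2 fold change 0.04, SE 0.27, adjusted p of 0.945 by edgeR). The highest value, mouse 7, held 1 cell with 755 counts among 54, and its mean without that cell was 7.26. CD68 was at 1.59 to 2.5 counts per cell in *Jak2WT* and 2.05 to 3.74 in mutant mice (log2 fold change -0.14, SE 0.21, adjusted p of 0.819 by edgeR). The fold changes of antibodies are relative to the summed antibody counts of each mouse, with TMM factors over the antibodies. Counts per cell are not scaled in this way, so they can differ from the fold changes in size and direction. Of the 73 antibodies with counts, 0% passed, with 13 at an unadjusted p under 0.05. Isotype controls bind no target, and 3 of them had counts. The paper's panel also lists a rat IgG2a control, which is not among the 73. Of the 3 controls, 2 were among the 13 and higher in mutant mice (log2 fold changes of 1.38 and 0.78, adjusted p of 0.195 and 0.240 by edgeR). The part of such binding in the CD63 and CD68 values was not tested. The transcripts *Cd63* (628 to 967 CPM in *Jak2WT*, 635 to 841 in mutant mice) and *Cd68* (482 to 601 and 447 to 755 CPM) overlapped between genotypes too.

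**Figure D5:**
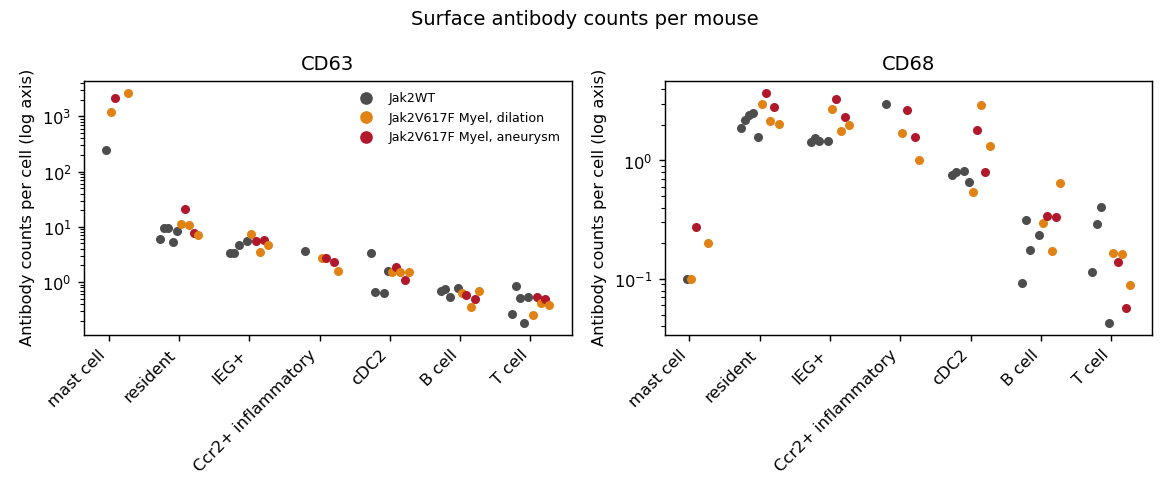
Surface antibody counts per cell (log axis) of CD63 and CD68 in 7 classes; each point is a mouse with at least 10 cells, colored by group, and the 1 value of 0 (CD68, T cells, mouse 4) cannot be drawn. Mast cells lie between 248 and 2698 for CD63 and near B and T cells for CD68.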

How the data were processed

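The authors deposited a table of UMI counts per barcode from Cell Ranger 6.0.2 on mm10 (GRCm38), unnormalized, for 32285 genes, 75 antibodies and 10 hashtags. Barcodes were assigned to mice by HTODemux (positive quantile 0.99), and multiplets, negatives and cells over 10% mitochondrial UMIs were left out, which is also how doublets were treated: of 8471 barcodes, 2265 were multiplets, 349 negative and 986 over the limit. Cells were clustered in Seurat 5.3.0 on 2000 variable genes and 20 principal components (resolution 0.3, macrophages 0.8), with all lysosome genes left out of the variable genes. Clusters were named by marker lists; the authors' own labels per cell were not used here, so names are rebuilt and may differ from theirs. A small B cell cluster and macrophages with low RNA were left out, and Res-S100hi came from dividing a cluster.

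Sums of UMIs per mouse and class (at least 10 cells) went through edgeR 4.0.16: genes kept by filterByExpr, TMM factors, and a two-sided quasi-likelihood test with Benjamini-Hochberg adjustment over all genes tested (threshold 0.05). The mouse is the replicate. The SE was obtained by dividing the size of the log2 fold change by the square root of F. DESeq2 1.42.0, run in R 4.3.3, was an alternative; others were library size without TMM, no filter, each mouse left out, MULTIseqDemux, a 5% mitochondrial limit, 10 principal components, lysosome genes kept in the clustering, at least 25 cells, single subsets or pooled macrophages, single severities, and a joint fit of the 3 groups. Some of the tests were run on counts simulated from their own fitted model, with changes larger than those of the called members. That check does not cover changes of the called members' size, and its rates are not given here. Positions are from GENCODE vM21. The members and lists were chosen with earlier results of these data known. By rule, values over mice (each, or their range) are given for called members (at most 10 per comparison), *Atp6v0d1* and *Atp6v0d2*, *Cd63* and *Cd68*, and those with the largest or smallest ratio between classes, and called genes of the second list (at most 5, of which a result is not reported here); *Ctsb*, *Ctsd*, *Atp6v0c*, *Gaa*, *Ctsl*, *Psap*, *Lipa* and the Res-S100hi alternative were added after their values were seen. In these summed samples, fewer transcripts per cell and fewer cells that express a gene cannot be told apart.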

Additional observations from a re-analysis of the deposited data

Results flagged for a closer look

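Of 87 groups of 4 to 10 mice examined, 5 had a mouse set apart from the others by Dixon's ratio, and chance flags about 1 in 20 groups (4.3 here). *Jak2WT* mouse 4, with 24 resident cells, had the highest share of UMIs in the 45 genes among *Jak2WT* mice in resident macrophages (1.98%, the others 1.88% to 1.90%) and in T cells (0.304%, the others 0.279% to 0.286%). In IEG+ macrophages *Jak2WT* mouse 2 had *Ctsd* at 454 CPM, the others 317 to 331 CPM, and surface CD68 at 1.55 counts per cell, the others 1.43 to 1.45. Mutant mouse 7, with aneurysm, had *Ctsl* at 473 CPM in IEG+ macrophages, the others 246 to 303 CPM.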

How the results depend on the processing

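The count of 2 called members in resident macrophages became 6 without the filter on low counts or with MULTIseqDemux, 1 for aneurysm against *Jak2WT*, and 0 for all macrophages pooled, for Res-MGL1hi, Res-*Txnip*hi or Res-S100hi cells alone (the last added after seeing the data) and for dilation against *Jak2WT*; it was 1 to 3 when each mouse was left out (*Ctsd* joined without mouse 2 or 8). Single subsets hold fewer cells (Res-MGL1hi and Res-S100hi also fewer mice) and single severities fewer mice; otherwise the cause was not tested. *Atp6v1a* passed in 21 of 26 alternatives and *Hgsnat* in 16. The other counts of 0 became 4 in IEG+ macrophages and 2 in cDC2 without the filter, 1 in cDC2 with DESeq2, and 13 for aneurysm against dilation in all macrophages pooled; leaving out each mouse gave 0 to 1 in cDC2 (*Ctsl* without mouse 8, adjusted p of 0.00793) and 0 to 1 antibodies (1 without mouse 2 or 4), and 0 in IEG+ macrophages, B cells, T cells and aneurysm against dilation. Over all genes, the 69 called in resident macrophages ranged from 0 to 320, the 18 in IEG+ macrophages from 4 to 173, the 1 in cDC2 from 0 to 63, the 1 for aneurysm against dilation from 0 to 1220, and the 0 in B and T cells up to 12 and 54. In this section the number over all genes is not given for each single setting, and the sections above do not give it for DESeq2. A count of members that changed with a setting can therefore not be read as a result about the members. Signs turned for *Ctsh* (0.029 in all macrophages pooled, 0.20 in Res-S100hi), *Atp6v1h* (-0.39 in Res-*Txnip*hi), *Cd63* in cDC2 (-0.23 with MULTIseqDemux) and surface CD63 (-0.21 to 0.15 when each mouse was left out). Of 548 values of single members and antibodies under an alternative, 505 kept sign and side of the threshold. The shares of UMIs moved by less than their SD. The comparisons of genotype and severity were not paired. Each mouse belongs to 1 group, and the sources used here do not say which mice were littermates.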
